A study of Mus musculus with 30 samples.

Results

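The PIWI-interacting RNA (piRNA) pathway is described here through the mRNAs of 10 of its proteins in mouse sperm: the PIWI proteins Piwil1, Piwil2 and Piwil4, the Tudor proteins Tdrd1, Tdrd6, Tdrd9 and Tdrkh, the helicase Mov10l1, Mael, and the scaffold protein Asz1. Members were chosen by gene symbol, and each was looked up in both tables of sperm RNA. In the table of libraries made 24 h after the last injection, 9 of the 10 had a row, among 15365 rows of mRNAs and lincRNAs (12170 with a RefSeq symbol, the others kept in this class without a known biotype). In the table of libraries made 46 days after it, which lists the more abundant features only, 2 of the 10 had a row (Tdrd6 and Tdrd9), among 2457 such rows. Asz1 was in neither table, and the genes without a row are not analysed here.

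C57Bl/6J males, 3 months old at the start, received intraperitoneal tesaglitazar at 10 µg per kg or the vehicle (DMSO in saline), 2 injections a week for 4 weeks. Tesaglitazar activates the nuclear receptors PPARα and PPARγ. Sperm of the cauda epididymis, cleaned by swim-up and by lysis of somatic cells, was taken 24 h after the last injection for polyA RNA libraries (TESA, n = 4; CTRL, n = 4) or 46 days after it for total RNA libraries (TESA, n = 7; CTRL, n = 7). The time point is therefore also the kind of library, the effects of which cannot be told apart, and levels are compared within a table only. Libraries are named below by their number in the labels. The study counts n in animals after removal of outliers, and for tesaglitazar it gives fewer than the libraries deposited for the later time point. The labels tie no library to an animal and mark none as an outlier. All deposited sperm libraries were used, and p-values measure only the spread between libraries, counting error included.

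piRNAs are small RNAs of the germ line that guide PIWI proteins to transposable element transcripts and to other RNAs. Long precursors are unwound, cut at the surface of mitochondria, loaded into a PIWI protein and trimmed, and Tudor proteins hold the loaded complexes together in cytoplasmic granules by binding methylated arginines of the PIWI proteins. The proteins act mainly in fetal germ cells, spermatocytes and round spermatids, before sperm reach the epididymis, and mature sperm are held to be largely inactive in transcription.

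The libraries at 24 h held 15337517 to 27709918 estimated counts, of which 6214416 to 16802715 lay outside the 5 most abundant features. The 9 members together took 298 to 1100 counts in CTRL libraries (median 470) and 369 to 1138 in TESA libraries (median 582). Divided by the library total, without TMM scaling, this was 20.8, 19.5, 31.9 and 41.9 CPM (counts scaled to the library total, in the unit of the edgeR cpm function) in CTRL libraries 2, 4, 6 and 8, and 18.7, 24.9, 29.4 and 41.1 CPM in TESA libraries 1, 3, 5 and 7. The groups overlapped over nearly their whole range, and the highest value of each group came from the library with the most counts in that group. Total counts did not order the others: TESA library 3 had 24483768 counts and 24.9 CPM, and TESA library 5 had 18795827 and 29.4 CPM. In both groups libraries 5 to 8 were above libraries 1 to 4, and the cause was not tested. Between 5 and 9 of the 9 members exceeded 20 counts in a library, and in 5 of the 8 libraries 1 member was listed at 0.

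Identity of the sample was checked on marker genes. All 8 markers of late spermatids and sperm had a row in the 24 h table, with a summed level of 4400 to 9093 CPM (from here on scaled by TMM over all features) in TESA and 2905 to 10284 CPM in CTRL libraries, and the highest mean was that of Odf1 in TESA (2276 CPM) and of Smcp in CTRL libraries (2354 CPM). Of 8 spermatocyte markers, Dmc1 and Smc1b had a row, and Sycp1, Sycp2, Sycp3, Spo11, Hormad1 and Meioc had none. The spermatocyte sum was 1.85 to 4.13 CPM in TESA and 1.70 to 5.01 CPM in CTRL libraries. For round spermatids 5 of 6 markers had a row, led by Acr, with sums of 9.62 to 26.9 CPM in TESA and 10.6 to 25.4 CPM in CTRL libraries. Markers of other cells were present as well: 3 of 8 epididymis markers, led by Crisp1, summed to 335 to 720 CPM in TESA and 382 to 1858 CPM in CTRL libraries, and 8 of 9 leukocyte markers, led by Lyz2, to 76.8 to 155 and 73.3 to 138 CPM. Both blood genes, led by Hbb-bs, summed to 31.9 to 85.2 CPM in TESA and 25.7 to 164 CPM in CTRL libraries. Of 6 spermatogonium markers 4 had a row (sums of 33.8 to 50.3 and 38.8 to 82.4 CPM, mostly from Uchl1), 1 of 5 Sertoli cell markers did (Sox9, 1.56 to 4.50 and 1.5 to 4.12 CPM), and none of 5 Leydig cell markers. None of these lists held a gene with an adjusted p under 0.05, and the part of other cells in the levels of the members was not tested. In such bulk libraries fewer cells with a transcript and less of it per cell cannot be told apart.

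At 24 h all 9 members with a row had over 20 counts in 4 or more libraries and were tested, and 0 of them passed an adjusted p of 0.05. The background was the same, in that 0 of 13028 tested mRNAs and lincRNAs (0%) passed in the quasi-likelihood test of edgeR, and 0 with its exact test or with DESeq2. At an unadjusted p under 0.05, 0 of the 9 members stood against 313 of the 13028 genes (2.40%). In 0 of the 9 were the CPM of the groups free of overlap, which held for 398 genes (3.05%). The log2 fold change of TESA against CTRL was below 0 for 5 of 9 members and for 6635 of the tested genes (50.9%). Its median was -0.44 over the members, with a range from -0.87 to 0.90, and -0.01 over all tested genes. Scaled by library totals, without TMM, the medians were 0.00 and 0.21. The members' median also came to -0.02 without TESA library 1 and to -0.02 without CTRL library 4, so that its distance from 0 was not stable across libraries. For each member alike the adjusted p at 24 h was 1.00 (quasi-likelihood test of edgeR, Benjamini-Hochberg).

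Among the PIWI proteins, PIWIL1 (MIWI) is the partner of the abundant piRNAs of pachytene spermatocytes and round spermatids. Its gene lies on chromosome 5 (128736071 to 128755474, GRCm38). Piwil1 was at 4.60, 1.78, 2.38 and 2.85 CPM in CTRL libraries 2, 4, 6 and 8, and at 3.27, 2.64, 4.19 and 3.40 CPM in TESA libraries 1, 3, 5 and 7. CTRL library 2 was the highest of all 8, and the other 3 CTRL libraries were below 3 of the 4 TESA libraries, and 4 of 4 TESA libraries lay above the CTRL median within overlapping groups. Its log2 fold change was 0.22, with a 95% interval from -0.82 to 1.26. Among TESA libraries the spread was 18.9% of the mean, against 11.5% from counting alone, and among CTRL libraries 41.8% against 14.6%.

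PIWIL2 (MILI) cleaves transposable element transcripts and starts the production of further piRNAs. Piwil2 (chromosome 14, 70372477 to 70436898) was at 1.5, 3.96, 0.388 and 2.98 CPM in CTRL libraries 2, 4, 6 and 8 and at 0.863, 1.56, 0 and 2.36 CPM in TESA libraries 1, 3, 5 and 7. TESA library 5 and CTRL library 6 were the lowest, with 0 and 8 counts, and TESA library 7 and CTRL library 8 were high in their groups, with 103 and 90.4 counts. The groups overlapped, and the log2 fold change of -0.87 had an interval from -3.45 to 1.70 and ran from -1.44 to -0.40 with each library left out in turn. A count of 0 in library 5 still allows up to 3 counts, by counting error alone.

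PIWIL4 (MIWI2) acts in the nucleus of fetal germ cells, where it directs DNA methylation to transposable elements. Piwil4 (chromosome 9, 14701776 to 14740672) was at 1.09, 2.59, 1.07 and 0.961 CPM in CTRL libraries 2, 4, 6 and 8 and at 0, 0.908, 2.17 and 1.10 CPM in TESA libraries 1, 3, 5 and 7. CTRL library 4 stood apart from 3 CTRL libraries that were nearly equal, while TESA library 1 had no counts and TESA library 5 had 44.2. On the log2 scale TESA minus CTRL was -0.44 (interval -2.89 to 2.02), and without CTRL library 4 it turned to 0.03.

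**Figure D1:**
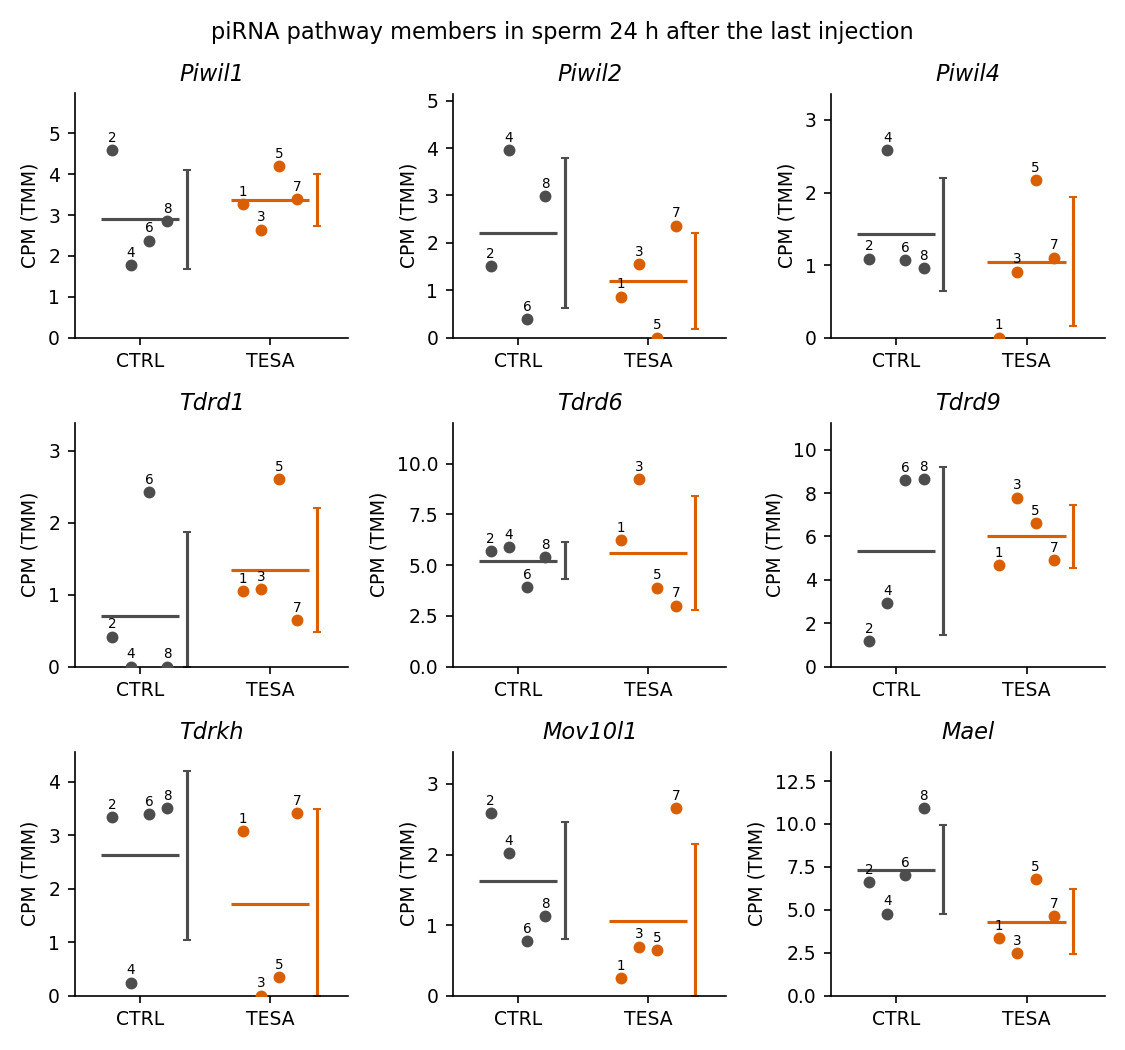
Level of each member (CPM, TMM-scaled, linear axes that start at 0) in the 4 CTRL and 4 TESA libraries at 24 h. Points are libraries with their number, lines are group means and bars are 1 SD (cut at 0); the groups overlap for each of the 9 members, and Mael has the TESA mean of 4.31 below the CTRL mean of 7.34 CPM.

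The Tudor proteins serve as scaffolds for the PIWI proteins. TDRD1 binds PIWIL2 in the granules between mitochondria. Tdrd1 (chromosome 19, 56826171 to 56870012) was at 0.418, 0, 2.43 and 0 CPM in CTRL libraries 2, 4, 6 and 8 and at 1.05, 1.08, 2.61 and 0.642 CPM in TESA libraries 1, 3, 5 and 7. All 4 TESA libraries were above the CTRL median, but CTRL library 6, with 50.0 counts, was above 3 of them and came close to the highest. Its log2 fold change of 0.90 had the widest interval of the members, from -2.34 to 4.14. It was 3.34 without CTRL library 6, 0.37 without TESA library 5, and 0.50 and 0.48 without CTRL libraries 4 and 8, and the threshold was reached in none of these fits.

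TDRD6 is a large scaffold of the chromatoid body, the RNA granule of round spermatids. Tdrd6 (chromosome 17, 43615334 to 43631846) was at 5.68, 5.90, 3.93 and 5.40 CPM in CTRL libraries 2, 4, 6 and 8 and at 6.23, 9.26, 3.89 and 3.01 CPM in TESA libraries 1, 3, 5 and 7. CTRL libraries were close together (5.23 ± 0.891 CPM, SD, n = 4), with a spread of 17.0% of the mean against 10.8% from counting alone. TESA libraries lay on both sides of them (5.60 ± 2.79 CPM, SD, n = 4), with library 3 the highest and library 7 the lowest. The difference was 0.10 on the log2 scale (interval -0.85 to 1.04) and became -0.26 without TESA library 3.

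TDRD9 joins a Tudor domain to an RNA helicase and works with PIWIL4 in fetal germ cells. Tdrd9 (chromosome 12, 111971488 to 112068854) was at 1.17, 2.91, 8.59 and 8.65 CPM in CTRL libraries 2, 4, 6 and 8 and at 4.69, 7.79, 6.60 and 4.91 CPM in TESA libraries 1, 3, 5 and 7. CTRL libraries 2 and 4, which had the smallest totals, were below all TESA libraries, and CTRL libraries 6 and 8 were above all of them. TESA against CTRL gave a log2 fold change of 0.16 (interval -1.14 to 1.46), and it was -0.15 without CTRL library 2.

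TDRKH tethers PIWI proteins to mitochondria while the ends of their piRNAs are trimmed. Tdrkh (chromosome 3, 94413243 to 94434854) was at 3.34, 0.243, 3.40 and 3.51 CPM in CTRL libraries 2, 4, 6 and 8 and at 3.08, 0, 0.345 and 3.42 CPM in TESA libraries 1, 3, 5 and 7. The 8 values fell into 5 libraries near 3 CPM and 3 libraries at or near 0, with both kinds in each group. A log2 fold change of -0.62 (interval -3.41 to 2.17) thus compares 1 low library in CTRL with 2 in TESA, and it ran from -1.21 to -0.20 with each library left out. Salmon's estimates for low counts include zeros where reads shared with another feature are assigned there, and whether that happened here was not tested.

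MOV10L1 is the helicase that binds piRNA precursors and feeds them to the nuclease at the mitochondria. Mov10l1 (chromosome 15, 88982891 to 89055152) was at 2.59, 2.02, 0.776 and 1.13 CPM in CTRL libraries 2, 4, 6 and 8 and at 0.247, 0.692, 0.641 and 2.66 CPM in TESA libraries 1, 3, 5 and 7. TESA libraries 1, 3 and 5 were below all CTRL libraries and TESA library 7 was above them all. This gave a log2 fold change of -0.60 (interval -2.58 to 1.39), which ran from -1.60 to -0.26 with each library left out. Scaled by library totals it was 0.00, where the median of all tested genes also moved, from -0.01 to 0.21.

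MAEL, a protein of the germ cell granules and nucleus, is needed for the silencing of transposable elements and for precursor processing. Mael (chromosome 1, 166201385 to 166238744) was at 6.60, 4.77, 7.03 and 10.9 CPM in CTRL libraries 2, 4, 6 and 8 and at 3.33, 2.47, 6.80 and 4.63 CPM in TESA libraries 1, 3, 5 and 7. All 4 TESA libraries were below the CTRL median of 6.82 CPM, and 3 of them were below all CTRL libraries, while TESA library 5 lay inside the CTRL range. The group means were 7.34 ± 2.59 CPM in CTRL and 4.31 ± 1.89 CPM in TESA libraries (SD, n = 4 each). The resulting log2 fold change was -0.77 (SE 0.43, interval -1.72 to 0.18). It remained below 0 with each library left out, from -1.05 to -0.51, and at -0.56 with library totals. The threshold, an adjusted p over all tested genes, was reached in none of these fits.

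Mael had the highest mean CPM of the members over all 8 libraries at 24 h and in CTRL libraries (7.34 CPM), a level not divided by transcript length, while in TESA libraries Tdrd9 (6.00 CPM) and Tdrd6 (5.60 CPM) were above it (4.31 CPM). With log2 CPM of Mael, Pearson's r of the other 8 members ran from -0.50 for Tdrd6 to 0.54 for Tdrkh, where the median over 13028 tested genes was 0.01. These r values are descriptions over libraries that differ in depth, and in counts this low they are no finding. The tested genes outside the pathway with the most similar pattern were Herpud2 (r = 0.95), Cks2 (0.94), Cebpg (0.91), RP23-112H14.6 (0.91) and Trmt6 (0.91). TESA library 7, the deepest, was the highest of the TESA libraries for Piwil2, Tdrkh and Mov10l1 and the lowest for Tdrd1 and Tdrd6. CTRL library 4 was the highest CTRL library for Piwil2, Piwil4 and Tdrd6, and the lowest for Piwil1, Tdrkh and Mael.

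Of 23 other genes of the pathway, 14 had a row at 24 h and 8 passed the count filter. Of these, 0 had an adjusted and 0 an unadjusted p under 0.05 (quasi-likelihood test of edgeR), 3 had a log2 fold change above 0 and 5 below 0, and their median was -0.10. Over all tested genes the shares were 0% adjusted, 2.40% unadjusted and 50.9% below 0, so these counts are near the background. Mybl1, Btbd18, Pnldc1, Henmt1, Tdrd12, Fkbp6, Spocd1, Dnmt3l and Dnmt3c had no row and are not analysed here. Pld6, Gpat2, Tdrd5, Rnf17, Stk31 and Tex15 had a row below the filter and were not tested.

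The pair that methylates arginines of PIWI proteins, so that Tudor domains can bind, is PRMT5 and its cofactor WDR77. Prmt5 was at 4.09, 7.44, 8.10 and 8.79 CPM in CTRL libraries 2, 4, 6 and 8 and at 8.02, 11.1, 12.9 and 12.1 CPM in TESA libraries 1, 3, 5 and 7. TESA libraries 3, 5 and 7 were above all CTRL libraries, and library 1 was inside the CTRL range. Its log2 fold change was 0.63 (SE 0.32, interval -0.09 to 1.36, adjusted p = 1.00 by the quasi-likelihood test of edgeR). Wdr77 was at 2.67 to 11.3 CPM in CTRL and 5.32 to 10.2 CPM in TESA libraries, with a log2 fold change of -0.03 (interval -1.02 to 0.95), which overlaps that of Prmt5. PRMT5 methylates histones and splicing proteins in most cells, so its mRNA is not particular to germ cells.

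The remaining tested genes also overlapped between groups. Tcfl5, a transcription factor of spermatocytes, was at 3.64 to 15.4 CPM in CTRL and 5.64 to 10.5 CPM in TESA libraries (log2 fold change -0.22). Hsp90aa1, a general chaperone that helps to load PIWI proteins, was at 53.3 to 209 CPM and 87.2 to 127 CPM (-0.26). Exd1, a partner of TDRD12 in the use of cleaved transcripts, was at 0 to 5.74 CPM in CTRL and 4.29 to 5.37 CPM in TESA libraries (0.61), with the 0 in CTRL library 2.

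Ddx4, the VASA helicase of germ cells, was at 0 in 1 library of each group and reached 4.95 CPM in CTRL and 4.98 CPM in TESA libraries, with a log2 fold change of 0.21. Tdrd7, a chromatoid body scaffold, was at 3.20 to 12.5 CPM in CTRL and 0 to 14.4 CPM in TESA libraries (-0.48). Gtsf1, which helps PIWI proteins to cleave their targets, was at 2.99 to 13.2 CPM in CTRL and 1.31 to 13.6 CPM in TESA libraries (-0.16).

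Transposable elements, the transcripts that the pathway represses, took 11.8, 12.1, 9.46 and 10.1% of counts in CTRL libraries 2, 4, 6 and 8 and 10.3, 12.4, 9.87 and 10.6% in TESA libraries 1, 3, 5 and 7. The groups overlapped, with means of 10.9 ± 1.28% and 10.8 ± 1.12% (SD, n = 4 each). TESA minus CTRL was -0.09 percentage points (two-sided exact permutation test, p = 0.971, where the smallest possible is 0.0286). Outside the 5 most abundant features, which include L1Md_T, the shares were 16.8 ± 3.38% in CTRL and 14.8 ± 2.76% in TESA libraries.

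By family, 0 of 542 tested elements (0%) were called at 24 h by the quasi-likelihood test of edgeR, by its exact test or by DESeq2, and 65 (12.0%) had an unadjusted p under 0.05. Of the 542, 429 (79.2%) were lower in TESA than in CTRL libraries, and the median log2 fold change was -0.32. Over tested genes the median was -0.01. Library totals moved both alike, to -0.08 for elements and 0.21 for genes, so that they are no further support. TMM over the elements alone, which centres them, gave -0.01 for elements. Of 98 tested L1 and Lx families 90 were below 0 (median -0.41), as were 13 of 20 IAP families (median -0.19) and 12 of 15 B1 families (median -0.22), all under the same TMM over all features. Among B2 families 1 of 3 was below 0 (median 0.25).

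Young L1 and IAP families are known targets of piRNAs in mouse germ cells. L1Md_A was at 52.8, 29.1, 48.5 and 50.3 CPM in CTRL libraries 2, 4, 6 and 8 and at 35.6, 33.9, 36.5 and 44.0 CPM in TESA libraries 1, 3, 5 and 7. CTRL library 4 was the lowest of all 8, and the other 3 CTRL libraries were above every TESA library, and TESA minus CTRL was -0.27 on the log2 scale (adjusted p = 0.591, quasi-likelihood test of edgeR). L1Md_Gf ranged from 3.64 to 9.02 CPM in CTRL and from 2.52 to 7.34 CPM in TESA libraries (-0.82, adjusted p = 0.413 in the same edgeR test). IAPEz-int was at 140 to 226 CPM in CTRL and 147 to 170 CPM in TESA libraries (-0.22), and IAPLTR1_Mm at 84.4 to 154 and 60.1 to 166 CPM (-0.05). The groups overlapped for each of these 4 families, and they were free of overlap for 45 of the 542 tested elements (8.30%).

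The 3 families with the most counts in CTRL libraries at 24 h were L1Md_T, ORR1A3 and L1Md_F2. L1Md_T was at 54666, 46676, 24467 and 24280 CPM in CTRL libraries 2, 4, 6 and 8 and at 46323, 49543, 30942 and 21407 CPM in TESA libraries 1, 3, 5 and 7. CTRL libraries 2 and 4 and TESA libraries 1 and 3 were high and the other 4 low, whatever the group (log2 fold change -0.02). The same libraries were high for ORR1A3 (-0.36) and L1Md_F2 (-0.41). Tdrd9 was lowest in CTRL libraries 2 and 4. Among TESA libraries it was lowest in library 1 (4.69 CPM) and highest in library 3 (7.79 CPM). Reads that match many copies of a repeat are split by estimation, so the level of a family is less certain than that of a gene.

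**Figure D2:**
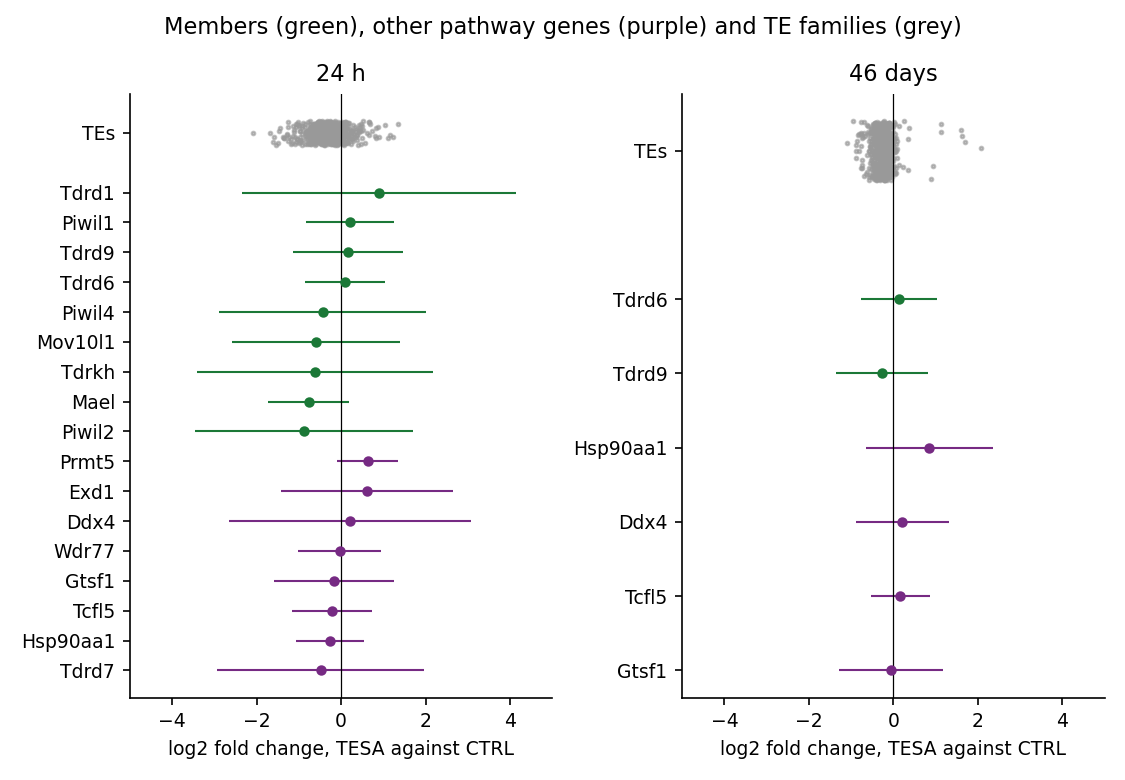
Log2 fold change of TESA against CTRL (linear axis) for each tested member, each other pathway gene and each tested transposable element family (542 at 24 h, 567 at 46 days; grey points, spread vertically for sight only). Points are estimates of edgeR's quasi-likelihood fit and bars their 95% intervals; each bar of a gene includes 0.

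Of the piRNA precursors, 1 row at 24 h carried the coordinates of a locus, on chromosome 9, as its name. It had at most 18 counts in CTRL and 14 in TESA libraries, with 1 and 2 libraries at 0, so that this row was not tested, and no row had such a name at 46 days. Other precursors of the authors' index may stand under gene names. They could not be told from genes, and some may be among the genes tested.

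At 46 days library totals were 4538101 to 13513801 counts, but the counts outside the 5 most abundant features, which include 18S ribosomal RNA (Rn18s-rs5, 56.9% of all counts), were 525567 to 7119432 in CTRL and 158852 to 3216118 in TESA libraries, with medians of 1135237 and 621027. All 8 sperm markers had a row, with sums of 240 to 547 CPM in CTRL and 295 to 587 CPM in TESA libraries. No marker of spermatocytes, Sertoli cells, Leydig cells, epididymis, leukocytes or blood had a row, 2 of 6 of round spermatids did (Acr and Tssk1, sums of 7.43 to 10.8 CPM in CTRL and 6.58 to 13.2 CPM in TESA libraries), and of the spermatogonium markers Uchl1 alone (21 to 24.5 and 12.3 to 26.5 CPM).

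Tdrd6 and Tdrd9 together had 28 to 360 counts in CTRL libraries (median 55.1) and 4 to 118 in TESA libraries (median 33.0). The most were in CTRL library 14 (360 counts, with 7119432 counts outside the 5 features) and in TESA library 11 (118 counts, 3216118). The fewest were in TESA libraries 2 (4 counts, 158852) and 12 (8 counts, 569647). Between these libraries the order was not kept: CTRL library 7 had 37.0 counts with 1902014 outside the 5 features, and CTRL library 9 had 69.7 with 845812. In TESA library 2 a single count was worth 1.16 CPM, against 0.013 CPM in CTRL library 14.

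Tdrd6 had a lowest, median and highest level of 1.16, 1.97 and 4.35 CPM in the 7 CTRL libraries and of 0, 1.63 and 5.94 CPM in the 7 TESA libraries. The highest was TESA library 5, from 23.8 counts, and the 0 was TESA library 2; the groups overlapped fully. TESA against CTRL was 0.12 on the log2 scale (interval -0.77 to 1.02, adjusted p = 0.999, quasi-likelihood test of edgeR). Its sign was not stable, with -0.28 without TESA library 5. Library totals gave -1.21, but they also moved the median of all genes from 0.03 to -1.03.

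Tdrd9 was at 0.648, 3.32 and 6.46 CPM (lowest, median, highest) in CTRL and at 0, 2.23 and 6.16 CPM in TESA libraries. CTRL library 7 was the lowest CTRL library, the 0 was TESA library 12, and the 4.66 CPM of TESA library 2 came from 4 counts, so that the groups overlapped over nearly all of their range. Its log2 fold change was -0.27 (interval -1.36 to 0.82, adjusted p = 0.999, quasi-likelihood test of edgeR), and it was 0.06 in libraries 1 to 10 alone. Library totals, with the same move of all genes, gave -1.49.

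**Figure D3:**
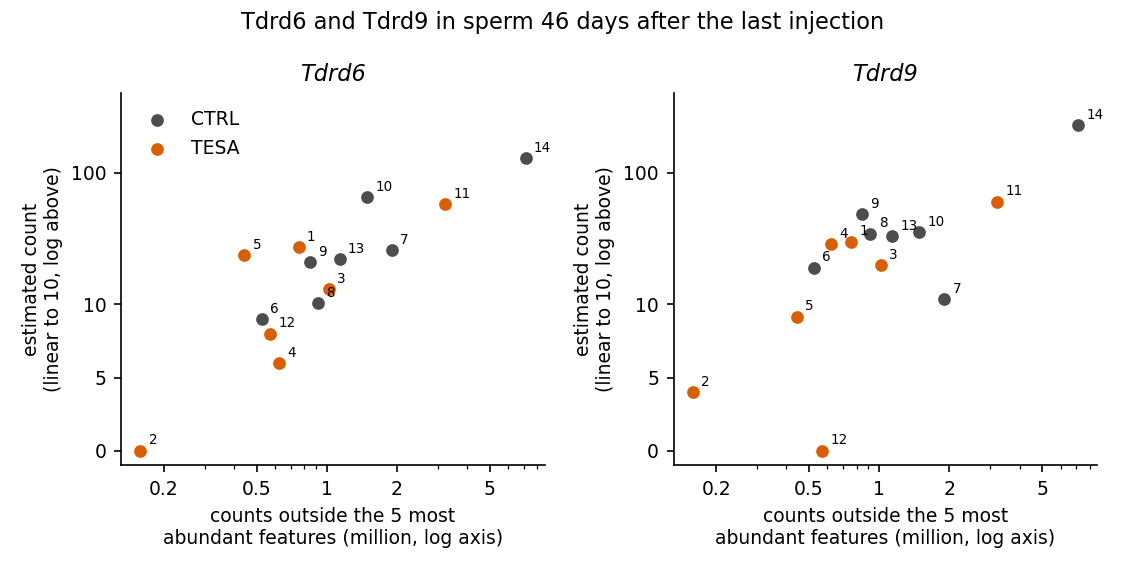
Estimated counts of Tdrd6 and Tdrd9 (vertical axis linear to 10 and logarithmic above) against the counts outside the 5 most abundant features (log axis) in the 14 libraries at 46 days. Points are libraries with their number; CTRL library 14 and TESA library 11 lie at the upper right and TESA library 2 at the lower left.

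Both members had over 20 counts in 6 or more libraries and were tested, and 0 of 2 were called, against 0 of 2261 tested mRNAs and lincRNAs (0%), by the quasi-likelihood test of edgeR at an adjusted p of 0.05. At an unadjusted p under 0.05 it was 0 of 2 members and 130 of 2261 genes (5.75%), and edgeR's exact test and DESeq2 called 13 and 0 genes, no member among them. A log2 fold change below 0 was seen for 1 of 2 members and for 1009 genes (44.6%), and the medians were -0.07 and 0.03.

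Of the other pathway genes 4 of 23 had a row at 46 days, and 0 of 4 passed. Tcfl5 was at 1.11, 2.78 and 3.82 CPM (lowest, median, highest) in CTRL and 1.16, 2.55 and 5.93 CPM in TESA libraries (log2 fold change 0.16), and Ddx4 at 0, 3.48 and 5.35 CPM and 1.80, 3.29 and 5.52 CPM (0.21). Gtsf1 was at 1.3, 5.56 and 7.36 CPM in CTRL and 0, 5.14 and 10.4 CPM in TESA libraries (-0.06). Hsp90aa1 was at 1.04, 2.83 and 4.35 CPM in CTRL and 0, 1.73 and 28.9 CPM in TESA libraries (0.85), where the 28.9 CPM were in TESA library 12, the next was at 2.56 CPM, and 6 of 7 TESA libraries were below the CTRL median.

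Between the time points, the fold change at 46 days minus that at 24 h in 1 joint model was -0.13 (SE 0.64) for Tdrd6 and -0.56 (SE 0.83) for Tdrd9 on the log2 scale, with adjusted p = 0.998 for both (interaction term, quasi-likelihood test of edgeR). This model scales all 22 sperm libraries over the features of both tables and shares its dispersion over them, so its differences are not those of the fold changes given above for each table, and for Tdrd6 the sign differs (0.12 at 46 days and 0.10 at 24 h in the fits of each table). In the joint model 0 of 2141 genes (0%) passed, and 106 (4.95%) had an unadjusted p under 0.05, with no member among them. For the other 4 pathway genes of both tables the difference in the joint model ran from -0.15 for Ddx4, whose fold change was 0.21 in the fit of each table, to 0.81 for Hsp90aa1.

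Transposable elements at 46 days took 9.42, 10.8 and 19.3% of counts (lowest, median, highest) in CTRL and 4.61, 8.63 and 16.7% in TESA libraries. Outside the 5 most abundant features, which include B4A and L1Md_F2, the direction turned. There the shares were 22.3, 39.0 and 43.2% in CTRL and 19.7, 42.6 and 60.2% in TESA libraries. Of all counts, the lowest share was that of TESA library 2, and the highest of each group were those of CTRL library 14 and TESA library 11. In the same libraries the members had the fewest and the most counts. Outside the 5 features these libraries stood in the reverse order. TESA library 2 had the highest share (60.2%), and CTRL library 14 (22.3%) and TESA library 11 (19.7%) had the lowest of their groups. Of 567 tested families 1 (0.176%) was called by the quasi-likelihood test of edgeR, 22 (3.88%) had an unadjusted p under 0.05, and 531 (93.7%) were lower in TESA libraries, where the median log2 fold change was -0.25. It was -0.11 without TESA library 1, -0.12 without TESA library 11 and -0.39 without TESA library 4. Over tested genes the median was 0.03. Library totals called 540 families, with a median of -1.74, but also moved the median of genes to -1.03. TMM over the elements alone, which centres them, gave a median of 0.02 and 0 called families, and DESeq2 called 0.

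The called family was MMVL30-int, the internal part of a retrovirus-like element. It was at 19.8, 29.9 and 35.2 CPM (lowest, median, highest) in CTRL and 21.5, 31.7 and 654 CPM in TESA libraries. TESA library 12 held the 654 CPM and the other 6 TESA libraries were at most at 34.0 CPM, so that the fold change (2.08 on the log2 scale, SE 0.32, adjusted p = 7.12e-08, quasi-likelihood test of edgeR) came from that library. No family was called without it. In the same library Tdrd9 was at 0 and Tdrd6 at 3.16 CPM, from 8 counts.

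The groups overlapped for the known target families at 46 days, as for each of the 567 tested (0% free of overlap). L1Md_A was at 80.6, 134 and 192 CPM (lowest, median, highest) in CTRL and 59.7, 150 and 335 CPM in TESA libraries (log2 fold change 0.13), and L1Md_Gf at 24.1, 29.7 and 45.1 and 14.8, 27.2 and 43.1 CPM (-0.38). IAPEz-int was at 77.5, 140 and 174 CPM in CTRL and 40.0, 106 and 175 CPM in TESA libraries (-0.24), and IAPLTR1_Mm at 0.656, 4.72 and 6.06 and 2.45, 5.10 and 12.6 CPM (0.35). L1Md_T was at 427, 518 and 904 CPM in CTRL and 295, 579 and 4392 CPM in TESA libraries (1.12, adjusted p = 0.512 by the quasi-likelihood test of edgeR), with the highest value again in TESA library 12.

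The families with the most counts in CTRL libraries were B4A, L1Md_F2 and L1Md_F3. For each, 6 of 7 TESA libraries were above the CTRL median of TMM-scaled CPM, with wide and overlapping ranges in both groups. Counts before scaling were closer. Their medians for B4A were 272321 in CTRL and 298870 in TESA libraries. For L1Md_F2 they were 218155 and 244694, and for L1Md_F3 81884 and 107024. Median library totals were 8189891 counts in CTRL and 8744995 in TESA libraries. B4A was at 1611, 31554 and 72320 CPM in CTRL and 8119, 81137 and 243729 CPM in TESA libraries. Its highest TMM-scaled levels were in TESA libraries 2 and 12, where TMM factors were 0.098 and 0.316, and its lowest in CTRL library 14, where the factor was 8.15. Log2 fold changes under the same TMM factors were 1.70 for B4A (interval 0.09 to 3.30), 1.59 for L1Md_F2 (0.10 to 3.08) and 1.63 for L1Md_F3 (0.36 to 2.91). These intervals are not adjusted for the number of families. Each family had adjusted p = 0.841 by the quasi-likelihood test of edgeR.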

How the data were processed

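The authors trimmed reads with Trim Galore, quantified them with Salmon 0.11.2 on GENCODE transcripts, piRNA precursors and transposable elements joined by family, and deposited estimated counts per gene or family for 22 sperm libraries. These were rounded to whole numbers. Families were recognised by repeat names, and other rows were classed by symbol and RefSeq biotype (GRCm38.p6). Those without a RefSeq symbol, unless named as tRNA, rRNA or a precursor locus, were counted as mRNAs and lincRNAs (12170 of 15365 such rows at 24 h and 1959 of 2457 at 46 days had a symbol). TMM scaling over all features of a table and edgeR 4.0.16's quasi-likelihood test (R 4.3.3) were used on features that exceeded 20 counts in 4 (24 h) or 6 (46 days) libraries or more, with Benjamini-Hochberg adjustment within mRNAs and lincRNAs or within elements and a threshold of 0.05. Alternatives were the authors' exact test, DESeq2 1.42.0, other scalings, no filter and each library left out. The 10 members and all lists were chosen with earlier results of these data known. Of the other pathway genes, those with an unadjusted p under 0.05 and the 5 with the highest level per kb were to be named; none had such a p and no transcript lengths were used, so all tested ones are named. For the same reason the genes most like the members were taken for the member of highest CPM. Elements were named as the 3 with the most counts in each CTRL group, those called and 5 known targets. Intervals cover counting error and spread between libraries, and the counting share of the spread treats reads as independent molecules. Serum libraries were not used here.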

Additional observations from a re-analysis of the deposited data

Results flagged for a closer look

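Values far from the rest of their group were looked for in 94 sets (each tested gene or named family in each group, and the summed shares), and 12 were found. The gap rule (Dixon's 95% values) is made to flag about 1 in 20 sets of normally distributed values by chance, and its rate in CPM values, which may be skewed, is not known here. The cause of each was not tested. At 24 h, Piwil4 was at 2.59 CPM in CTRL library 4, with the next CTRL library at 1.09 CPM, and Tdrkh was at 0.243 CPM in the same library, with the next at 3.34 CPM. That library was also low for IAPLTR1_Mm, at 84.4 CPM against 152 CPM or more in the other CTRL libraries. B4A was at 929 CPM in TESA library 3 (next 671 CPM), and L1Md_Gf at 7.34 CPM in TESA library 1 (next 3.07 CPM).

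At 46 days TESA library 12 stood above the other TESA libraries for 5 features. Hsp90aa1 was at 28.9 CPM (next 2.56 CPM), MMVL30-int at 654 CPM (next 34.0 CPM), ORR1A3 at 870 CPM (next 104 CPM), L1Md_T at 4392 CPM (next 1811 CPM) and IAPLTR1_Mm at 12.6 CPM (next 6.68 CPM). ORR1A3 was also high in CTRL library 13, at 269 CPM (next 85.4 CPM). Tdrd6 and Tdrd9 together took 16.1 CPM of the library total, without TMM scaling, in TESA library 11, against 6.78 CPM in the next TESA library.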

How the results depend on the processing

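The counts of members and of other pathway genes past the threshold were 0 at both time points under each alternative run, and so was that of members whose difference between the time points was called. Of 157 refits of single members other than by library totals, 150 kept the sign and none reached the threshold (lowest adjusted p 0.942). Of 11 with library totals, which moved all genes, 9 kept the sign (lowest adjusted p 0.493), and Mov10l1 at 24 h was 0.0035 and Tdrd6 at 46 days -1.21. In libraries 1 to 10 alone Tdrd9 at 46 days was 0.060. With each library left out in turn, the log2 fold change ran from -1.44 to -0.40 for Piwil2, -1.60 to -0.26 for Mov10l1, -1.21 to -0.20 for Tdrkh, 0.37 to 3.34 for Tdrd1, 0.07 to 0.54 for Piwil1, -1.04 to 0.0334 for Piwil4, -0.26 to 0.31 for Tdrd6 and -0.15 to 0.50 for Tdrd9 at 24 h, and from -0.28 to 0.39 for Tdrd6 and -0.66 to -0.06 for Tdrd9 at 46 days. The members' median ran from -0.47 to -0.0164 at 24 h and from -0.27 to 0.05 at 46 days; with library totals it was 0.0035 and -1.35. The difference in element share at 24 h ran from -0.64 to 0.32 percentage points, and it was -2.07 points outside the 5 most abundant features.

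Families called at 46 days, 1 in the main fit, were 6 with the exact test, 3 without a filter, 540 with library totals (all lower in TESA, where the median of genes was -1.03), 0 with DESeq2, 0 with TMM over elements alone, 0 in libraries 1 to 10 alone, and 0 to 4 with each library left out (0 without TESA library 12, 4 without TESA library 1, 2 without TESA library 11 or CTRL library 13). The cause was not tested. The only row named as a precursor locus was below the filter, so its alternatives were not run, and precursors under gene names could not be told from genes. No paired analysis was possible because no tesaglitazar and vehicle libraries of a table share a number. Counts of the members were low: at 46 days Tdrd6 and Tdrd9 had a combined median of 33.0 counts in TESA libraries. The spread of Tdrd9 there was 70.5% of the mean in TESA libraries, against 33.5% from counting alone. In CTRL libraries it was 52.5% against 17.2%. What limits the tests of the members was not tested.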
